A study of Mus musculus with 294 samples.

Results

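Imprinted genes are read mainly from the chromosome inherited from the mother or mainly from that inherited from the father. Of the 15124 genes in the count table, 10 imprinted genes with known roles in growth of the embryo were taken by name, and all 10 were rows of the table: Igf2, H19, Dlk1, Meg3, Peg3, Mest, Plagl1, Cdkn1c, Grb10 and Ndn. The samples were single cells of the mouse heart, each its own library, collected around the aorticopulmonary septum at 4 ages: E11.5, E12.5, E14.5, E17.5. All came from Wnt1-Cre; R26-EYFP embryos, with no treatment named, and were sorted for EYFP, the fluorescent reporter that Cre switches on for good in cells whose ancestors used the Wnt1 promoter, so the mark covers the neural crest lineage and not a present cell type. The labels give no stage, animal or chip of a cell, so the cells formed 1 group, without replicates, and no test between groups of cells was made.

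Cell names are the letter C and a number with a leading digit of 1 to 7, and no label explains that digit. Cells with the same leading digit are called a name series here. The 7 name series held 58, 48, 38, 38, 34, 34 and 44 cells and are not groups of the study. Levels are given as CPM, that is as reads of the gene per 1000000 reads counted in that cell. A gene was called detected in a cell at 10 CPM or more. Total reads per cell ran from 34046 to 3033857 with a median of 1204543. Of the marker genes listed for mesenchyme, Col3a1 was detected in 99.7% of cells and Postn in 97.96%, and of those for smooth muscle Acta2 was detected in 61.9%. Glial Sox10 was detected in 14 cells, and no melanocyte marker was detected in more than 3.74% of cells. No columns of the table were identical.

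In mammals, the maternal and paternal copies of an imprinted gene carry different DNA methylation marks, set in the germ line. Many imprinted genes act on growth: the paternally read ones, such as the growth factor gene Igf2, tend to promote growth of the embryo, and the maternally read ones, such as Cdkn1c and Grb10, tend to restrain it. They lie in clusters. On chromosome 7, Igf2 (paternal) and the noncoding RNA gene H19 (maternal) share enhancers and are governed by 1 control region between them. On chromosome 12, Dlk1 (paternal) and the noncoding RNA gene Meg3 (maternal) form such a pair. The counts do not separate the parental copies, so imprinting itself was not measured.

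In GENCODE M21 on GRCm38, H19 (ENSMUSG00000000031.16) spans chr7:142575529-142578143 on the minus strand and Igf2 (ENSMUSG00000048583.16) spans chr7:142650766-142666816 on the same strand. Dlk1 (ENSMUSG00000040856.17) lies at chr12:109452823-109463336 and Meg3 (ENSMUSG00000021268.17) at chr12:109541001-109571726, both on the plus strand. RefSeq on GRCm38.p6 gave windows of 250 bases upstream of the annotated starts for 8 of the 10 genes. Of these, 3 windows are shown, since Igf2 was among the most widely detected genes below while the neighbours Dlk1 and Meg3 were not detected alike. None holds an exon base of its gene. Capitals mark matches on either strand. The letters searched for a GC box were GGGCGG. For a CCAAT box they were CCAAT. For a TATA box they were TATAAA.

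Igf2, annotated start 4, chr7:142657497-142657746, minus strand: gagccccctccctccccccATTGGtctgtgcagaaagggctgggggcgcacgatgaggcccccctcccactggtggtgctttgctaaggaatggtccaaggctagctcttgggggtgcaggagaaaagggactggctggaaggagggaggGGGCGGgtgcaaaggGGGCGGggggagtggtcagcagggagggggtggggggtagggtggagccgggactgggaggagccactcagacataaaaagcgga

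Dlk1, chr12:109452573-109452822, plus strand: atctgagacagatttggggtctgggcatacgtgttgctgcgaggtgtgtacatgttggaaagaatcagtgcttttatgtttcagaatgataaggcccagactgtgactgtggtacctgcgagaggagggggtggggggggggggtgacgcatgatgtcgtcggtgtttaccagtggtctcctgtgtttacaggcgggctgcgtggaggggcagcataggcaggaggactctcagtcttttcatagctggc

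Meg3, annotated start 1, chr12:109540746-109540995, plus strand: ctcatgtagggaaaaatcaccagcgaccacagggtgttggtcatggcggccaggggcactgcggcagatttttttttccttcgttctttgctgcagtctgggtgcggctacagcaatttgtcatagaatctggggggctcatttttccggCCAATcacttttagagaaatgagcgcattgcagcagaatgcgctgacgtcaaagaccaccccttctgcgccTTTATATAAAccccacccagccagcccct

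The Igf2 window held the GC box letters in 2 places and those of the CCAAT box in 1. The Meg3 window held 2 overlapping matches to the TATA box letters, on opposite strands, and 1 CCAAT box match. The Dlk1 window held none of these letters. Among all 32851 annotated windows of this length, 32.7% held the GC box letters, 33.8% those of the CCAAT box and 12.4% those of the TATA box. The letters GGGGCCCC, which the zinc finger protein encoded by Plagl1 is known to bind, occurred in 1 of the 15 windows of the 10 genes, upstream of Peg3, and in 0.889% of all windows. A match is a description of the letters and not of binding.

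Several of the genes also carry microRNAs, which full-length mRNA libraries do not count. A mature pair from an exon of H19 (miR-675) and a pair from an intron of Igf2 (miR-483) are printed to show what else the most correlated pair of genes below encodes. Capitals mark the seed, bases 2 to 8, and no seed is shared among the 4.

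mmu-miR-675-5p, chr7:142577112-142577133, minus strand: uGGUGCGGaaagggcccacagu

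mmu-miR-675-3p, chr7:142577078-142577099, minus strand: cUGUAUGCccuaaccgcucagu

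mmu-miR-483-5p, chr7:142654968-142654989, minus strand: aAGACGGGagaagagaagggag

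mmu-miR-483-3p, chr7:142654932-142654952, minus strand: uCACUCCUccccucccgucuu

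The first question was how widely these genes were read across cardiac neural crest cells. Igf2, H19 and Grb10 were detected in nearly every cell, Meg3, Ndn and Peg3 in most, and Plagl1, Cdkn1c, Mest and Dlk1 in 53.4% of cells or fewer. At 10 CPM, 8 of the 10 genes were detected in at least 50% of cells. The median share over all 10 genes was 73.8%, and the median over 8853 tested genes, those found at this level in 10% or more of the cells, was 29.9%. Of the 8 genes, Cdkn1c had the lowest share, 50.7%, and 75.9% of the tested genes had a lower share than that. Every cell had at least 4 of the 10 genes detected, and 22 cells had all 10. Reads of the 10 genes together made up a median of 0.540% of a cell's reads, from 0.113% to 5.49%.

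The growth factor pathway was represented by Igf2, which encodes insulin-like growth factor 2, and Grb10, an adaptor that dampens signalling from insulin and IGF receptors. Igf2 ran from 0 to 26871 CPM with a median of 1091 (95% order-statistic interval 921 to 1218). It was detected in all but 5 cells, 98.3% (exact Clopper-Pearson 95% interval 96.1 to 99.4). Intervals of both kinds reflect the sampling of cells alone, as if cells were independent draws, and hold no spread between animals or chips. Several reads can stem from 1 molecule. In the annotation, 3596 exon bases of Igf2 also belong to a second gene model on the same strand that is no row of the table. Grb10 (ENSMUSG00000020176.17, chr11:11930508-12038683, minus strand) ran from 6.02 to 3871 CPM with a median of 672.4 (95% interval 617.3 to 799.6) and was detected in all but 1 cell, 99.7% (95% interval 98.1 to 99.99). Grb10 was spread most evenly: the 30 cells with the highest levels held 28.6% of its summed CPM, and the median over all tested genes was 73.5%.

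The noncoding RNA genes were H19 and Meg3. H19 ran from 0 to 24293 CPM with a median of 1641 (95% interval 1473 to 1833) and was detected in all but 2 cells, 99.3% (95% interval 97.6 to 99.9). Meg3 ran from 0 to 11385 CPM with a median of 147.9 (95% interval 110.999 to 194.2) and was detected in 88.8% of cells (95% interval 84.6 to 92.1). Divided by the exon length of each gene, the median level of H19 was 667.02 CPM per kilobase, that of Igf2 190.6, that of Grb10 73.98 and that of Meg3 8.17. Of the 18089 exon bases of Meg3, 1228 lie opposite another noncoding gene, and the library kit does not mark strand, so reads there cannot be told apart.

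Dlk1 encodes a membrane-bound protein related to Notch ligands and was the most restricted of the 10 genes. It had a read in 35.7% of cells and reached 8223 CPM in the highest. It was detected in 74 cells, 25.2% (95% interval 20.3 to 30.5), and the 30 highest cells held 92.4% of its summed CPM. Mest (ENSMUSG00000051855.15, chr6:30723547-30748465, plus strand), which encodes a protein of the alpha/beta hydrolase fold, ran from 0 to 12026 CPM with a median of 5.22 (95% interval 1.55 to 38.4) and was detected in 46.9% of cells (95% interval 41.1 to 52.8). Mest shares 912 exon bases with Copg2 on the opposite strand, so part of its reads could belong to Copg2, which was detected in 11.2% of cells.

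Regulators of the nucleus and the cell cycle followed. Cdkn1c, which encodes the cyclin-dependent kinase inhibitor p57, ran from 0 to 3822 CPM with a median of 10.9 (95% interval 2.46 to 30.6) and was detected in 50.7% of cells (95% interval 44.8 to 56.5). An antisense gene lies opposite part of the exons of Cdkn1c, and its reads cannot be told apart. Plagl1 (ENSMUSG00000019817.18, chr10:13060504-13131694, plus strand), a zinc finger transcription factor, ran from 0 to 11016 CPM with a median of 15.6 (95% interval 6.48 to 38.4) and was detected in 53.4% of cells (95% interval 47.5 to 59.2). Both were high in some cells and without a read in many: Cdkn1c had a read in 64.3% of cells and Plagl1 in 67.01%. The zinc finger gene Peg3 (ENSMUSG00000002265.16, chr7:6703892-6730431, minus strand) ran from 0 to 2408 CPM with a median of 63.1 (95% interval 41.4 to 90.1) and was detected in 71.8% of cells (95% interval 66.3 to 76.8). Ndn (ENSMUSG00000033585.5, chr7:62346569-62350262, plus strand), which encodes necdin, a MAGE family protein, ran from 0 to 3985 CPM with a median of 165.9 (95% interval 105.4 to 213.4) and was detected in 75.9% of cells (95% interval 70.5 to 80.6).

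**Figure D1:**
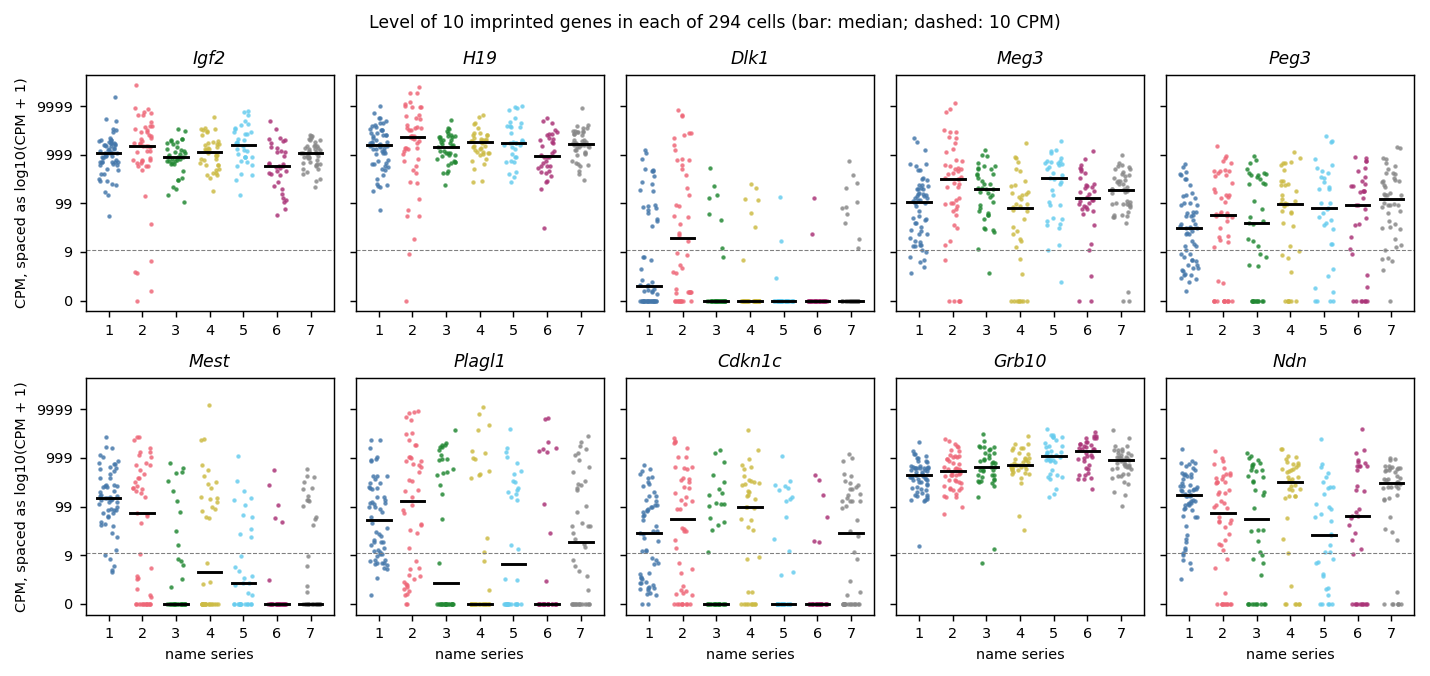
Each point is 1 cell, with the level in CPM on a log10(CPM + 1) axis and the 7 name series along the horizontal axis; bars are medians and the dashed line is 10 CPM. Igf2, H19 and Grb10 lie above the dashed line in nearly every cell, Plagl1, Cdkn1c and Mest spread from 0 to over 1000 CPM, and Dlk1 is above 0 mainly in series 1 and 2.

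The levels varied between name series. The mean of Dlk1 was 816 CPM in series 2 and 4.48 in series 6, so that they differed 57.1-fold once 10 CPM was added to each. The means of series 5 and 6 rest on few cells, since the highest cell reached 135.9 CPM in series 5 and 129.5 in series 6, and 2 cells had Dlk1 detected in each. Dlk1 was detected in 52.1% of series 2 cells (95% interval 37.2 to 66.7), in 36.2% of series 1 cells (23.99 to 49.9) and in 5.88% of series 5 cells (0.720 to 19.7). At least 4-fold differences between the highest and the lowest series mean were also seen for Mest (13.3-fold), Cdkn1c (9.33-fold), Meg3 (5.51-fold) and Plagl1 (4.75-fold). That made 5 of 10 genes, where 27.9% of the 8853 tested genes reached 4-fold. The median difference was 4.09-fold over the 10 genes and 3.003-fold over all tested genes.

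Series 2 had the highest mean for Dlk1, Meg3, Plagl1 and Cdkn1c among those 5, while the highest median of Cdkn1c was in series 4 and that of Meg3 in series 5. Without series 2, Dlk1 differed 9.03-fold, Meg3 2.19-fold and Plagl1 3.33-fold, and 3 of 10 genes reached 4-fold. Without series 6, which had the lowest means for Mest and Cdkn1c, Mest differed 7.04-fold and Cdkn1c 3.98-fold, and without series 1 Plagl1 differed 3.78-fold, each leaving 4 of 10 genes at 4-fold. The share of all tested genes at 4-fold was not computed with a series left out. For Mest the highest mean was that of series 4, 535 CPM, and it came down to 224.4 without its highest cell, which held 12026 CPM. By median, Mest was highest in series 1 at 146.7 CPM (95% interval 113.98 to 246.6), then 71.9 in series 2, and between 0 and 3.89 in series 3 to 7. Mest was above 0 in all 58 cells of series 1 and at 0 in 13 to 28 cells of every other series. Meg3, Peg3, Plagl1 and Ndn also had a read in each of the 58 cells of series 1, whose median of 7718 genes with a read per cell was above the 3123 to 4676.5 of the others. Without series 1, Mest was detected in 36.02% of cells.

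The 5 other genes differed by less than 4-fold between series means. By series medians, again with 10 CPM added, Ndn differed 9.33-fold, from 25.1 CPM in series 5 to 317.9 in series 4, and Dlk1 2.85-fold and Meg3 3.80-fold. Grb10 had medians of 441.1, 536, 657.5, 707, 1116, 1389 and 889 CPM in series 1 to 7, so series 6 was highest and series 1 lowest. The 95% intervals of these medians overlapped between all neighbours in that order, but those of series 1 (367.7 to 566.3) and series 6 (867 to 1847) did not. Intervals over the cells of a series hold no spread between animals or chips, so they make no test between series. For Igf2 the highest median was 1609 CPM in series 5 (95% interval 903 to 2720) and the lowest 582 in series 6 (394 to 1153), and these intervals overlapped. For H19 they were 2274 CPM in series 2 (1335 to 3482) and 951 in series 6 (595 to 2015), which also overlapped. The highest over the lowest series mean was 3.43-fold for Peg3, 2.88 for Igf2, 2.69 for Grb10, 2.67 for H19 and 2.15 for Ndn.

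The few cells with little Igf2 all expressed the glial gene Sox10. Igf2 was below 10 CPM in 5 cells, all in series 2, all with Sox10 and the glial gene Fabp7 detected, and their depth was 339183 to 3033857 reads. They also had the mesenchyme gene Postn detected. H19 was below 10 CPM in 2 of the 5. In each of the 280 cells without Sox10 detected, Igf2 was at least 53.3 CPM and H19 at least 29.6 CPM. This grouping of cells was looked at after the low levels had been seen.

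Of the 14 cells with Sox10 at 10 CPM or more, 6 were in series 2, 5 in series 1, and 1 each in series 3, 6 and 7. In the 6 series 2 cells, Igf2 was 0, 0.557, 2.64, 2.95, 5.49 and 37.5 CPM. In the other 42 cells of series 2 it ran from 138.9 to 26871 CPM with a median of 1737, so the 2 sets did not overlap. H19 in the 6 cells was 0 to 70.8 CPM with a median of 36.2, below the 122.2 to 24293 CPM of the other 42, whose median was 2439. Plagl1 was 0.557 to 31.7 CPM in the 6 cells, median 2.25, and 0 to 9049 in the other 42, median 275.2, which overlapped. The share of all tested genes without overlap between these sets was not computed. Whether the lack of overlap is particular to Igf2 and H19 was therefore not tested. The grouping was found through low Igf2, so the lack of overlap for Igf2 is no test of a link to Sox10.

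Grb10 overlapped between these sets. It was 230 to 1663 CPM in the 6 Sox10 cells, median 545, and 68.8 to 2472 in the other 42, median 526. Mest was 0 to 2293 CPM in the 6 cells, median 533, and 0 to 2697 in the others, median 66.2, so the ranges overlapped. In the 5 Sox10 cells of series 1, Igf2 was 238.3 to 1907 CPM, within the range of that series, 53.3 to 15498 CPM. In those of series 3, 6 and 7 it was 834, 3349 and 658.6 CPM. The Sox10 cells also differed in other glial genes. At least 2 of Fabp7, Foxd3 and Erbb3 were detected in 7 of the 14 cells, 6 of series 2 and 1 of series 1, and Igf2 in these was 0 to 288.2 CPM with a median of 2.95. In the other 7, 4 of them of series 1, Igf2 was 238.3 to 3349 CPM with a median of 834. The 3 genes were chosen after their values had been seen. Among the 14 Sox10 cells, these 3 genes and name series thus moved together. The series 1 cells at 238.3 and 288.2 CPM lay below the lower quartile of their series, 663.1 CPM. By the whole list of 6 glial genes, 12 cells had 3 or more detected, and not all were Sox10 cells. Igf2 in these 12 was 0 to 5548 CPM with a median of 137.9, and 7 of them had 10 CPM or more. In cells with fewer glial genes, Igf2 was 53.3 to 26871 CPM with a median of 1110. With so few cells from unnamed animals, whether the low Igf2 belongs to glial cells or to 1 animal or chip was not tested.

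**Figure D2:**
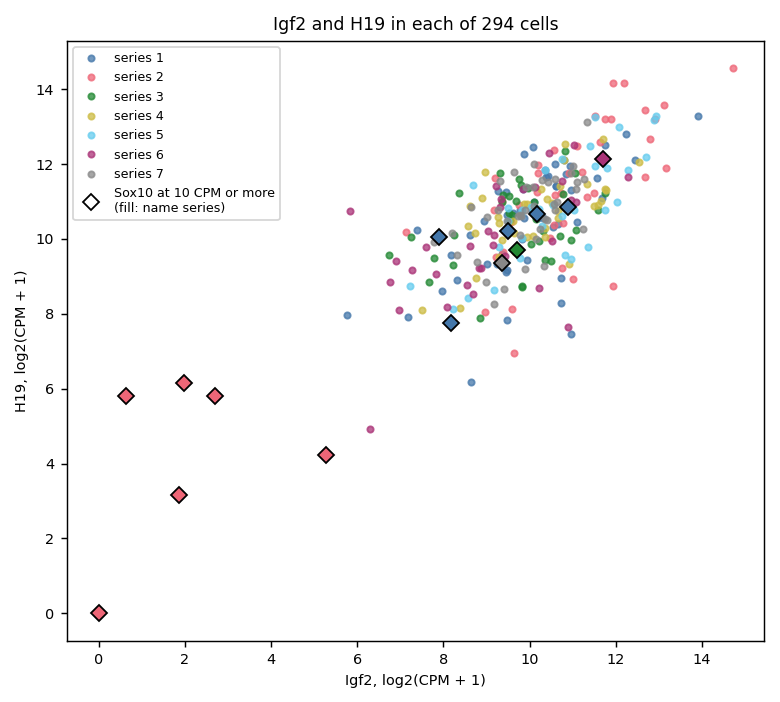
Each point is 1 cell, with Igf2 on the horizontal and H19 on the vertical axis, both as log2(CPM + 1); colours are name series and diamonds are the 14 cells with Sox10 at 10 CPM or more. The 6 Sox10 cells of series 2 lie at the lower left, and the other cells run along the diagonal.

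The rule for these genes also asked how they varied together. Igf2 and H19, read from opposite parental chromosomes, went up and down together across cells in every name series. Spearman's correlation of their levels was 0.62, 0.79, 0.23, 0.57, 0.72, 0.63 and 0.55 in series 1 to 7, with a median of 0.62. Correlations here are over the 34 to 58 cells of a series, which share library preparation and differ in depth, so they are descriptions. Leaving out the 14 Sox10 cells, the value of series 2 was 0.69 and that of series 1 was 0.60. With the total count and the number of genes detected regressed out of each, the median was 0.55, and the range over series was 0.09 to 0.71. Over all cells the standard deviation was 1.15 for the log2 ratio of the 2 levels, 1.6003 for log2 Igf2 and 1.58 for log2 H19. Within series it was below both genes' values in series 1, 2, 4, 5 and 6, for example 1.38 beside 2.71 and 2.68 in series 2. In series 3 (1.21 beside 1.14 and 0.980) and series 7 (0.876 beside 0.845 and 0.985) it was not.

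Over all 45 pairs of the 10 genes, the median correlation was 0.05, and over all pairs of tested genes it was 0.03. A correlation above 0 in all 7 series was found for 5 of the 45 pairs, where 2.52% of all pairs of tested genes had that pattern. A correlation below 0 in all 7 was found for 1 pair, where 0.418% of all pairs did. Besides Igf2 with H19, the 5 pairs were Plagl1 with Cdkn1c (median 0.24, range 0.02 to 0.39), Dlk1 with Plagl1 (0.22, 0.06 to 0.53), Peg3 with Cdkn1c (0.15, 0.01 to 0.38) and Cdkn1c with Ndn (0.07, 0.02 to 0.46). The pair below 0 was Meg3 with Mest (median -0.18, range -0.31 to -0.10). With total count and genes detected regressed out, Igf2 with H19 was the only pair of the 45 with 1 sign in all 7 series. The share of all pairs of tested genes was not computed with these regressed out.

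The other pairs within an imprinted cluster had medians near 0. Dlk1 and Meg3, neighbours on chromosome 12, had a median correlation of 0.04, from -0.09 to 0.51, with 4 series above 0 and 3 below. The highest value was in series 2, where both genes had their highest means. Cdkn1c lies on chromosome 7 (ENSMUSG00000037664.13, chr7:143458339-143461050, minus strand) near Igf2 and H19, and its median correlation was 0.04 with Igf2 and -0.02 with H19. Pairs read from the same parental chromosome had a median of 0.06 (21 pairs), and pairs read from different ones had 0.04 (24 pairs).

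**Figure D3:**
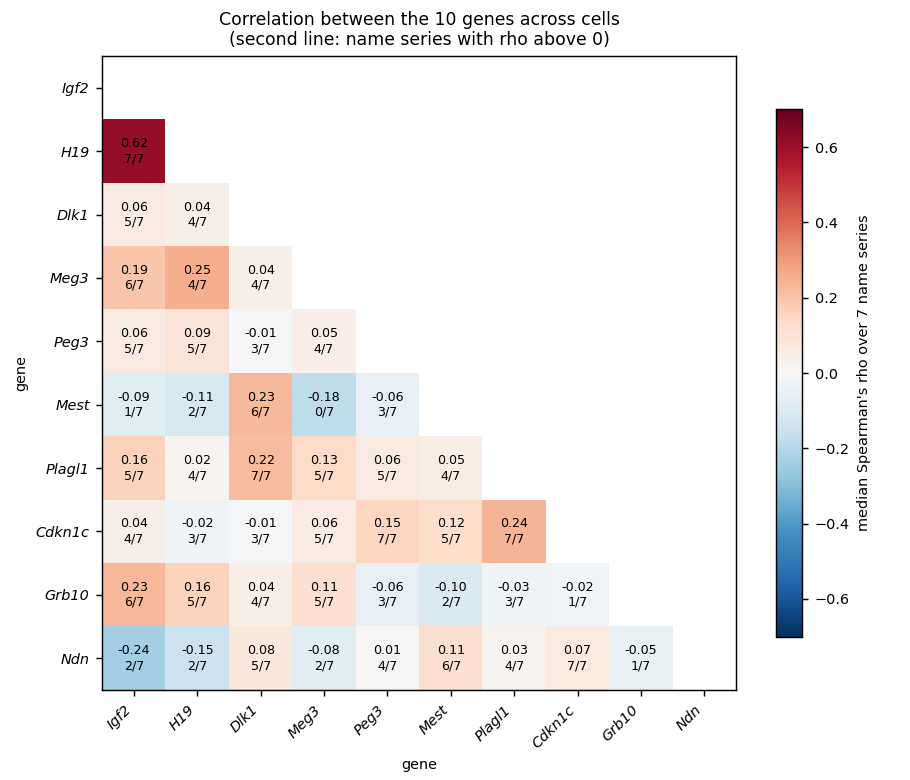
Each square is a pair of the 10 genes, coloured and labelled by the median over 7 name series of Spearman's correlation across cells, with the number of series above 0 underneath. The Igf2 and H19 square, 0.62 and 7 of 7, is the darkest, and the Dlk1 and Meg3 square reads 0.04.

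Nearby imprinted genes that were chosen for their place in a cluster gave further values. Rian, a noncoding RNA gene next to Meg3, was detected in 40.1% of cells, and its median correlation was 0.24 with Meg3 (6 of 7 series above 0) and 0.15 with Dlk1 (7 of 7, where 0.771% of tested genes were above 0 with Dlk1 in all 7). Kcnq1ot1, the noncoding RNA read from the paternal chromosome in the Cdkn1c cluster, was detected in 42.5% of cells and had a median correlation with Cdkn1c of 0.23, from 0.14 to 0.51. It was above 0 in all 7 series, as 2.2% of tested genes were with Cdkn1c. Usp29, next to Peg3, had a median of -0.09 with 4 series below 0, and Zim1, in the same cluster, had 0.13 with 6 above. Meg3 with Mirg had a median of 0.19 (5 series above 0) and Mest with Copg2 0.08 (6 above). Ndn had -0.03 with Peg12 and -0.10 with Ube3a, each with 4 series below 0. Magel2 and Phlda2, detected in few cells, could not be correlated in every series.

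Acta2, the actin of smooth muscle, was read beside the 10 genes because part of this lineage becomes the smooth muscle of the great arteries. Dlk1 was lower in cells with more Acta2 and Peg3 was higher, each in all 7 series, and the other 8 genes had mixed signs. For Dlk1 the correlations in series 1 to 7 were -0.36, -0.20, -0.15, -0.23, -0.34, -0.06 and -0.05, with a median of -0.20. Dlk1 was above 0 CPM in 3 of 34 cells of series 5 and 2 of 34 of series 6, so the sign there rests on those few cells. Of all tested genes, 0.311% were below 0 with Acta2 in all 7 series and 4.31% were above 0. Dlk1's value was 0.08 when all cells were taken as 1 set, and series 1 and 2, which had the highest Dlk1 shares, also had the highest mean levels of Acta2, 2357 and 2246 CPM.

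For Peg3 the correlations with Acta2 ran from 0.07 to 0.22 with a median of 0.13. Cdkn1c had the highest median, 0.23, with 5 series above 0 and 2 below, from -0.09 to 0.42. Ndn had a median of 0.19 with 4 series above 0, and Plagl1 had 0.16 with 5. Mest was below 0 in 6 of 7 series with a median of -0.04, and its lowest value was -0.46 in series 2. The median over the 10 genes was 0.02, and over all tested genes 0.04. With the mean of 8 smooth muscle genes in place of Acta2, Peg3 was above 0 in all 7 series (median 0.15, background 4.57%), and Dlk1 had a median of -0.27 with 5 series below 0 and 2 above.

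Several of the genes are known to brake or drive growth, so they were set beside 20 genes of G2 and mitosis. Plagl1, which is known to arrest the cell cycle when added to cultured cells, was higher in cells with more of these transcripts in all 7 series. Its correlations in series 1 to 7 were 0.45, 0.02, 0.08, 0.29, 0.24, 0.20 and 0.33, with a median of 0.24. Of all tested genes, 10.3% were above 0 in all 7 series and 0.265% below, so 1 of 10 is close to this background. The single sign for Plagl1 was lost in the SCT table, after thinning, with Pearson's correlation and without cells under 200000 reads, and its median in these ran from 0.23 to 0.35. It was also lost with total count and genes detected regressed out, where the median was 0.08. With Mki67 alone, Plagl1 was above 0 in 6 of 7 series with a median of 0.25, and no member had 1 sign in all 7, where 8.65% of tested genes were above 0 and 0.587% below. With 20 S-phase genes no member had 1 sign either, where 15.8% were above 0 and 0.288% below.

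Cdkn1c, an inhibitor of the cycle, had a median correlation of 0.09 with the G2 and mitosis genes, from -0.09 to 0.20. H19 had the lowest median, -0.15, with 6 of 7 series below 0, and Igf2 had -0.10 with 5 below. Both were above 0 in series 1, 0.13 for H19 and 0.15 for Igf2. Without series 1, 3 of the 10 genes had 1 sign in all remaining series: Plagl1 above 0 (median 0.22), and H19 (-0.19) and Grb10 (-0.07) below. Over the same 6 series 13.2% of tested genes were above 0 and 0.554% below. The median over the 10 genes was -0.01, and over all tested genes 0.07.

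The genes also differed in how they related to depth. Igf2, H19 and Meg3 were lower in cells with more reads in all 7 series, with medians of -0.40, -0.28 and -0.18 for the correlation of their CPM with the total count. Of all tested genes, 0.518% were below 0 in all 7 series. Ndn was above 0 in all 7 with a median of 0.28, where 8.72% of tested genes were. Igf2 and H19 were also below 0 in all 7 series with the number of genes detected, with medians of -0.29 for each, where 0.334% of tested genes were. Cdkn1c was above 0 in all 7 with a median of 0.10, where 30.7% were. Igf2 and H19 thus shared a relation to depth, and their correlation with each other was 0.55 with total count and genes detected regressed out.

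**Figure D4:**
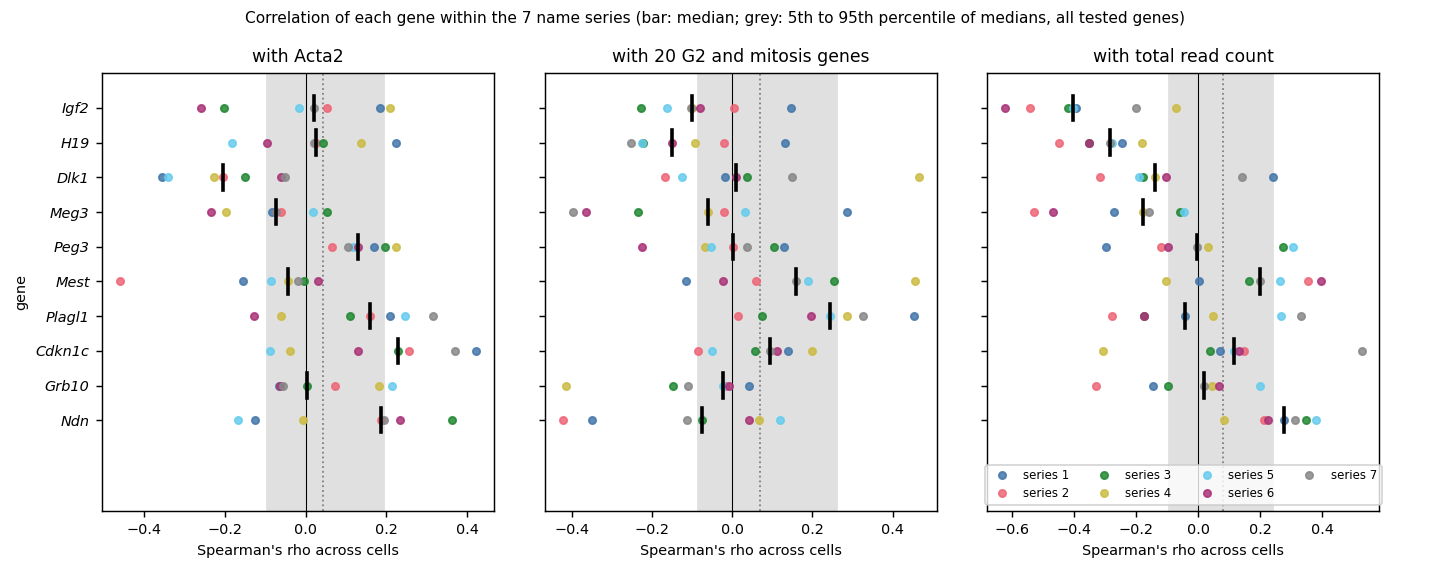
Points are Spearman's correlations of each gene in each name series with Acta2, with the mean of 20 G2 and mitosis genes, and with the total read count; bars are medians and the grey band runs from the 5th to the 95th percentile of the medians of all tested genes. Dlk1 lies left of 0 with Acta2 in all 7 series, Plagl1 lies right of 0 in the middle panel, and Igf2, H19 and Meg3 lie left of 0 with total count.

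The genes most like each member, by median correlation among those with 1 sign in all 7 series, differed from member to member. For Igf2, after H19, they were the ribosomal RNA precursor row Rn45s (0.44) and the ribosomal protein gene Rps20 (0.44), with Sox6 lowest (-0.32). For H19, after Igf2, they were Lars2, a mitochondrial leucyl-tRNA synthetase gene (0.43), and Rn45s (0.42), and the mitotic kinesin gene Kif20a was lowest (-0.37). Above 0 in all 7 series were 0.541% of tested genes with Igf2 and 0.46% with H19, and 4.88% and 4.19% were below. These were more genes below 0 than above. Lars2 was the lowest gene for Ndn (-0.26), whose nearest were Ebna1bp2 (0.30), Morf4l2 (0.27) and Eif3m (0.25), and for Ndn 2.83% of tested genes were above 0 in all 7 series and 0.414% below.

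The shares of tested genes with 1 sign in all 7 series are given next as above 0, then below 0. Dlk1 (0.771% and 0.921%) was most like Lum, which encodes the matrix proteoglycan lumican (0.35), then Lpar1 (0.25) and Igsf3 (0.25), and Foxp1 was lowest (-0.24). Cdkn1c (2.2% and 0.437%) was most like the noncoding HoxA-cluster RNA Hotairm1 (0.37), then Macf1 (0.28) and Dock6 (0.28), and Sox5 was lowest (-0.29). Peg3 (1.46% and 0.391%) was most like Wdr33 (0.23), Klf3 (0.22) and the actin-binding gene Cald1 (0.22), and Cox7a2 was lowest (-0.17). Mest (3.79% and 0.599%) was most like Nudt21 (0.32), Mpc1 (0.30) and Umps (0.29), and Ltbp1 was lowest (-0.27). Plagl1 (1.88% and 0.334%) was most like Rnf144a (0.30), Dbt (0.30) and Samhd1 (0.29), and Rtn1 was lowest (-0.28). Grb10 (0.645% and 1.59%) was most like Ddx17 (0.32), Zscan26 (0.29) and Ppargc1a (0.23), and Gm6682 was lowest (-0.27). Meg3 (0.84% and 1.39%) was most like Coa4 (0.25), Zfp869 (0.25) and Slc22a5 (0.22), and the cathepsin gene Ctsb was lowest (-0.28).

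Of 13 listed genes of IGF and Notch signalling, all were rows and 12 were tested genes. Igf2r, the receptor that clears Igf2 and is itself imprinted, was detected in 89.5% of cells (95% interval 85.4 to 92.7), Igf1 in 74.5%, Igf1r, the receptor through which Igf2 signals, in 67.7%, and Akt1 in 59.2%. Igf2 had median correlations of 0.14 with Igf2r and 0.14 with Igf1r, each above 0 in 6 of 7 series. Dlk1 had -0.02 with Notch1, 0.04 with Notch2 and 0.05 with Notch3, all of mixed sign.

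Of 55 other imprinted genes listed, 44 were rows, 27 were tested genes and 10 were detected in at least 50% of cells. Of all tested genes, 75.9% had a lower share of cells than Cdkn1c, at 50.7%. The most widely detected were Gnas (100% of cells), Igf2r, Cd81 (88.1%), Slc38a4 (72.4%) and Ube3a (70.4%). At least 4-fold differences between name series were seen for 9 of the 27, with the 27.9% of all tested genes as the background. Each of the 10 genes had 1 sign in all 7 series with at most 2 of the 27. Over all tested genes, the shares above 0 ran from 0.46% with H19 to 3.79% with Mest. The shares below 0 ran from 0.334% with Plagl1 to 4.88% with Igf2. Counts of at most 2 are too small to set against these shares.

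Cdkn1c is 1 of several cyclin-dependent kinase inhibitor genes, and their shares of cells, not adjusted for gene length, were lower than its 50.7%. Cdkn2d was detected in 32.3% of cells (95% interval 26.999 to 37.99), Cdkn1b in 25.9% (20.9 to 31.3), Cdkn1a in 18.7% (14.4 to 23.6), Cdkn2c in 9.52% and Cdkn2b in 5.44%. The genes of the Igf2 mRNA-binding proteins and Hmga2, all active in fetal tissue, were detected in near 50% of cells: Igf2bp2 55.1%, Hmga2 48.3%, Igf2bp1 48.3% and Igf2bp3 47.96%. Hmga2, a chromatin protein gene, differed 28.8-fold between series means, with 771 CPM in series 5 and 17.2 in series 2. The order of Hmga2 was thus not that of Dlk1, which was highest in series 2.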

How the data were processed

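RNA of 294 single EYFP-positive cells was measured on Fluidigm C1 chips with full-length cDNA, and no molecular identifiers are named. Per the submitters' processing notes, the tools were HISAT2 2.1.0, featureCounts and Seurat and the build mm10, with no role given. The authors deposited raw read counts per gene as whole numbers, 15124 genes by 294 cells. The authors also deposited a table called SCT with 14051 genes, a score here, whose whole numbers summed to 1110845 to 1216916 per cell. It served only as an alternative. How it was made is not given in the sources used here.

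The members and lists were chosen with earlier results of these data known. Counts were scaled to CPM with Python 3.11.15, pandas 2.3.3 and scipy 1.17.1. Correlations used log2(CPM + 1) within each name series, the median over 7, and the count with 1 sign in all 7, beside the same over the tested genes. Folds between name-series means had 10 CPM added to both. Named genes were the 10 members, Acta2, Mki67, the 3 highest and the 1 lowest correlated gene of each member, and the 5 most widely detected genes of 4 lists. Some genes that these rules name are left out here. Cluster neighbours, marker genes, Hmga2's fold and partners named with correlations stand outside that rule. Alternatives were other units, thinning to 200000 reads (279 cells, 15 left out), other scalings, pseudocounts and correlations, and leaving out each name series or the Sox10 cells. The shared correlation step, and the fold formula written anew, were tested on simulated data with known answers. That simulation used genes detected in at least 30% of cells, so sparser genes such as Dlk1 were not covered. Coordinates are from GENCODE M21 on GRCm38.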

Additional observations from a re-analysis of the deposited data

How the results depend on the processing

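No paired analysis was possible because all cells form 1 group with no shared replicate numbers. Under the alternatives, 21 summary values moved from the reported ones. The number of genes detected in at least 50% of cells was 5 instead of 8 at 100 CPM. The number with a 4-fold difference between name series was 3 instead of 5 both without series 2 and with 100 CPM added. For these counts the share of all tested genes was not computed under the alternatives. Regressing out total count and genes detected left 1 of the 6 pairs with 1 sign in all series, and the share of all pairs was not computed there. The median correlation with Acta2 was 0.02, and it was 0.0889 after thinning, 0.0857 with Pearson's correlation of log2(CPM + 1), 0.109 with that of log2(CPM + 10), 0.0809 with all cells as 1 set and 0.0762 with the smooth muscle list. The number of genes with 1 sign for Acta2 was 2, and it was 1 after thinning, 1 with the smooth muscle list and 4 with total and genes detected regressed out. For the G2 and mitosis genes this number was 1, and it was 0 in the SCT table, after thinning, with either Pearson's correlation, with total and genes detected regressed out, without cells under 200000 reads (chosen after seeing the data), with the S-phase list and with Mki67 alone, and 3 without series 1. For these numbers, the share of all tested genes was computed with the smooth muscle list, the S-phase list and Mki67 alone. It was also computed for the G2 and mitosis genes without series 1, but in none of the other settings named. Dlk1 with Acta2 reversed to 0.0779 with all cells as 1 set, where the count of series cannot be given. Igf2 with H19 stayed between 0.55 and 0.64 in every alternative run for it. Leaving out the highest cell of each name series, also chosen after seeing the data, left 5 genes at 4-fold or more. Except where a setting used fewer cells or other genes, the cause of a shift was not tested. Depth limits shares at 10 CPM in the shallowest cells, where 1 read of 34046 is already above that level.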
